A study of Vitis vinifera with 8 samples.

Results

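Thaumatin-like proteins and chitinases are defence proteins that the grape berry makes in large amounts. The thaumatin-like protein genes TL1 and TL3 and the chitinase genes CHI4D, CHI4C and chit1a were followed here through ripening and a short heat treatment. They were chosen by gene symbol and number 5 of the 25771 genes listed for each library. TL1 (gene ID 100232841), TL3 (100232879, also Tl2), CHI4D (100233107, also VvChi4A and VvChi4B) and CHI4C (100232911) were found by symbol. The name chit1a was found as a synonym of gene 100232985, which also carries the synonym CHIT1B. A separate gene with the symbol CHI1B was listed at 0 in all 8 libraries. All 5 genes passed the filter for testing, which asked for at least 1 RPKM in at least 2 libraries. RPKM is the number of reads of a gene per kilobase of its length and per 1000000 reads counted in the library. TL1, TL3 and CHI4D were at or above 1 RPKM in 8 of 8 libraries and CHI4C in 6 of 8. For chit1a this held in 4 of 8, all of them post-véraison, so chit1a entered the tests only through the group where it is high.

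Thaumatin-like proteins (family PR-5 of the pathogenesis-related, or PR, proteins) and chitinases are the main soluble proteins of the ripe berry. They are best known in wine making, where they aggregate and cloud white wine. Thaumatin-like proteins can permeabilise fungal membranes, and chitinases cut chitin, a polymer of fungal cell walls. Both families are made in healthy berries from véraison on, when a hard green berry turns soft, sweet and coloured, and many of their genes also respond to pathogens or stress.

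The berries came from L1 microvines, a dwarf line derived from the L1 cell layer of Pinot Meunier that fruits in a growth room, and were deseeded. The 4 groups were pre-véraison berries of 5 to 6 weeks and post-véraison berries of 12 to 14 weeks after flowering, each taken at 16 °C and again 1 hour after the room was raised to 38 °C. Each group had 2 biological replicates, given below as replicate 1 and then replicate 2, and how many plants or berries went into each replicate is not stated in the labels. The unheated berries were sampled at 9 AM and the heated ones at 10 AM, so heat and the hour of day cannot be told apart.

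Libraries held 6047199 to 11243341 reads counted in genes, and replicates had a Pearson r of 0.993 to 0.995 on log2(RPKM + 1). The labels were checked against marker genes. The summed RPKM of the 4 ripening markers found of 6 looked for was 197 to 383 pre-véraison and 14881 to 16740 post-véraison. MRIP1 made up most of this sum, at 196 to 382 RPKM pre-véraison and 14049 to 15867 RPKM post-véraison. The 4 green-berry markers gave 537 to 804 and 22.6 to 36.1. Of the heat markers HSP101, HsfA2 and BiP the sum was 9.75 to 13.3 at 16 °C, 1516 to 1742 in heated pre-véraison and 107 to 143 in heated post-véraison berries. HSP101 and HsfA2 made up most of the heated sums, with means of 1010 and 610 RPKM pre-véraison and 55.4 and 65.4 RPKM post-véraison. The sums therefore do not show how BiP changed. Seed markers could not be looked up, because the names in the table used do not include them. The 10 genes with the most reads took 7.80 to 11.7% of the reads pre-véraison and 23.9 to 26.6% post-véraison.

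**Figure D1:**
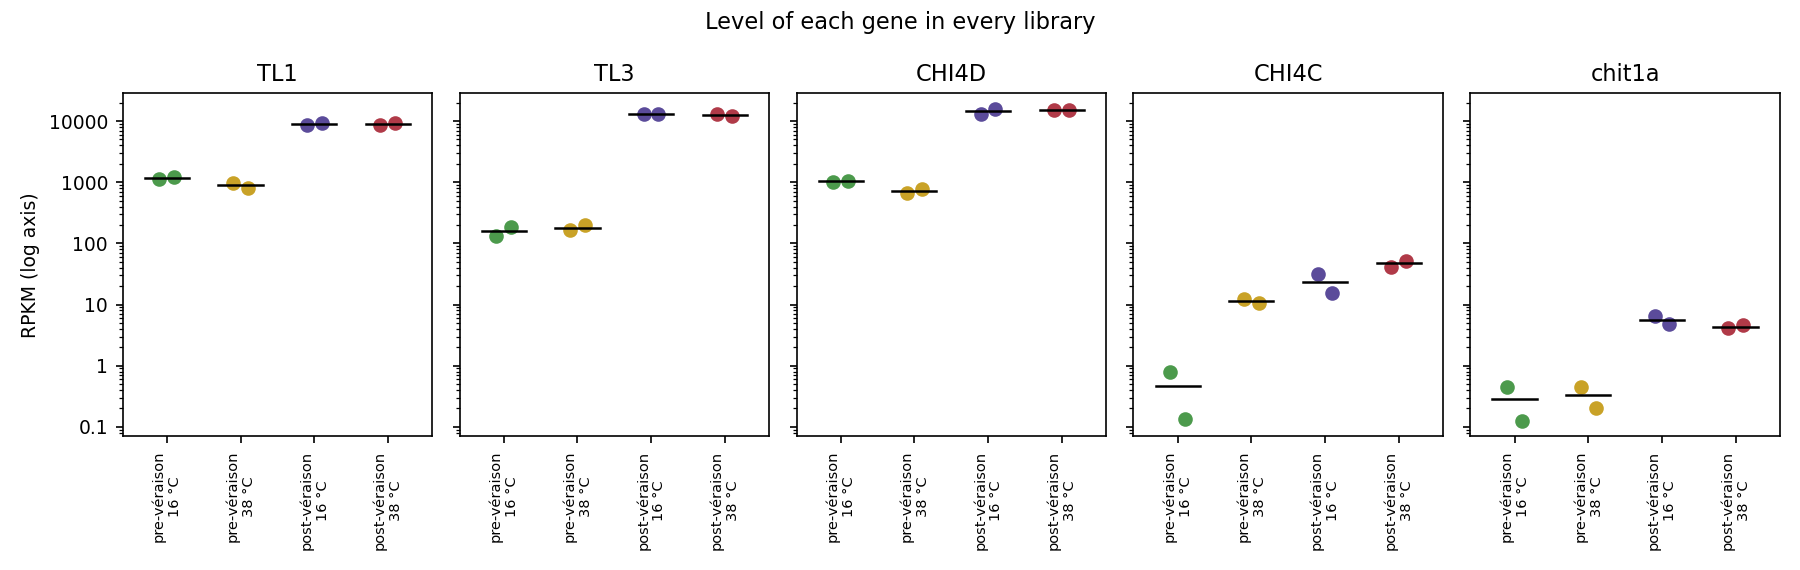
RPKM (log axis, the same scale in all panels) of the 5 genes in the 8 libraries. Points are libraries, lines are group means (n = 2); all 5 genes have higher values in the 4 post-véraison libraries than in the pre-véraison libraries of the same temperature, and CHI4C is also higher in the heated pre-véraison libraries (12.2 and 10.45 RPKM) than in the unheated ones (0.79 and 0.13).

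Transcripts of the 5 genes were at higher levels in post-véraison berries. In unheated berries TL1, TL3, CHI4D and CHI4C rose, and chit1a had higher values, with ratios of mean RPKM from 7.72 for TL1 to 80.9 for TL3. TL1, TL3 and CHI4D were already expressed before véraison and were among the 12 genes with the highest RPKM after it. CHI4C and chit1a stayed far lower at both stages. Which cells of the berry carried these transcripts is unknown, and in whole deseeded berries more cells of a type and more RNA per cell cannot be told apart.

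Among the thaumatin-like genes, TL1 was at 1137 and 1212 RPKM in unheated pre-véraison berries and at 8698 and 9441 RPKM in unheated post-véraison berries. All post-véraison libraries lay far above all pre-véraison ones, and the replicates were close at both stages. The difference in log2(RPKM + 1) was 2.95 ± 0.17 (SE; limma adjusted p = 1.9e-07). By RPKM, TL1 held ranks 36 to 39 of all genes in unheated berries before véraison and 41 to 68 in heated ones. After véraison it held rank 12 at both temperatures.

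TL3 started lower and ended higher than TL1. It was at 134 and 188 RPKM before and 13170.4 and 12896 RPKM after véraison at 16 °C. The groups did not overlap, and the change, 6.35 ± 0.18 log2 units (SE; limma adjusted p = 3.3e-09), was the widest of the 5. Its rank went from between 468 and 737 to rank 7 in both libraries.

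CHI4D, a class IV chitinase gene, was at 1023 and 1049 RPKM in unheated pre-véraison berries and at 13115 and 15692 RPKM in unheated post-véraison berries. Its post-véraison libraries were all above its pre-véraison ones, with a wider spread between the post-véraison replicates (14403 ± 1823 RPKM, SD, n = 2). The difference was 3.79 ± 0.18 log2 units (SE, limma adjusted p = 4.6e-08). The rank of CHI4D in unheated berries was 42 to 45 before véraison and 4 to 8 after it.

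CHI4C is the second class IV gene and lies directly beside CHI4D in the reference. It was at 0.79 and 0.13 RPKM (5 and 1 recovered reads) before véraison and at 32.0 and 15.3 RPKM (275 and 181 reads) after it at 16 °C. Both post-véraison libraries were higher, and replicate 1 was well above replicate 2. The difference was 4.03 ± 0.31 log2 units (SE; limma adjusted p = 1.1e-06). The ratio of means was 51.4, and the ratio of the summed reads per library read had a 95% counting interval of 23.4 to 140, so its size is known only roughly.

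The gene matched to chit1a, a class I chitinase name, was the lowest of the 5 after véraison. It was at 0.44 and 0.13 RPKM before véraison (3 and 1 reads) and at 6.44 and 4.84 RPKM after it (59 and 61 reads). The groups did not overlap, with a difference of 2.37 ± 0.20 log2 units (SE). Since chit1a entered the tests only through its post-véraison libraries, no p-value is given for its stage difference and it is not counted among the calls. The ratio of means was 19.8, and the ratio of the summed reads per library read had a counting interval of 7.70 to 75.5.

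In heated berries the stage difference was called for TL1, TL3, CHI4D and CHI4C as well. It was 3.33 log2 units for TL1, 6.11 for TL3, 4.38 for CHI4D and 1.95 for CHI4C, with limma adjusted p-values from 3.8e-09 for TL3 to 2.3e-04 for CHI4C, and 2.02 for chit1a, given as a description. The ratios of mean RPKM were 10.0, 69.3, 20.8, 4.15 and 13.2 in the same order. No heated post-véraison library overlapped a heated pre-véraison library for any of the 5. How often that held over all genes was not counted at either temperature, and 70.3% of all genes tested were called between the stages at 38 °C.

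The 4 calls at each temperature stand against a broad background of change. Of the 16777 genes tested, 71.9% were called between the stages at 16 °C, 14.9% higher and 57.0% lower, and at 38 °C 70.3% were called, 17.2% higher and 53.0% lower. The direction of that background depends on scaling, which moved the median gene by 0.52 log2 units at 16 °C and 0.43 at 38 °C. With median-ratio scaling of the libraries 31.8% were higher and 33.6% lower at 16 °C, and 32.2% and 34.5% at 38 °C. TL1, TL3, CHI4D and CHI4C were called higher under both scalings.

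**Figure D2:**
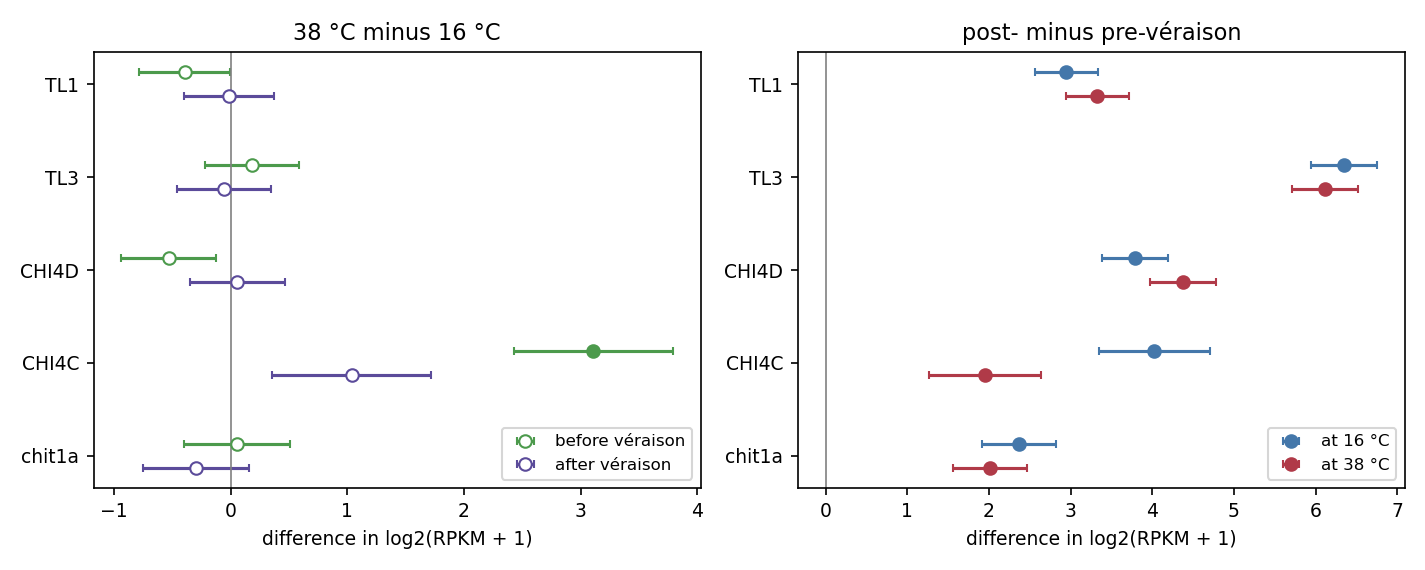
Differences in log2(RPKM + 1) of the 5 genes in each comparison, with 95% confidence intervals from the limma fit; filled points passed an adjusted p under 0.05. All 5 genes lie above 0 in both stage comparisons (for chit1a as a description, since it was tested only through its post-véraison values), and CHI4C stands apart in the heat comparison before véraison at 3.11.

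TL1, TL3 and CHI4D together took a larger share of all reads after véraison. They held 0.249 and 0.265% of the reads in unheated pre-véraison berries, 0.195 and 0.193% in heated ones, 3.75 and 4.10% in unheated post-véraison berries and 3.97 and 3.89% in heated ones. The exact 95% counting intervals of these shares are narrow, for example 3.74 to 3.77% around 3.75%, and cover counting error only. The post-véraison shares of the heated and unheated berries overlapped.

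The order of the genes changed with ripening. TL3 was below TL1 in all 4 pre-véraison libraries, with an RPKM ratio of 0.118 to 0.244, and above it in all 4 post-véraison libraries, with a ratio of 1.29 to 1.51. CHI4D was at 0.683 to 0.944 of TL1 before and 1.51 to 1.71 of TL1 after véraison. Against TL3, CHI4D was 3.86 to 7.61 times as high before véraison and 0.996 to 1.25 times as high after it, so those neighbours in the order did not differ beyond their spread at the later stage. CHI4C over CHI4D went opposite ways at the 2 temperatures. In unheated libraries the ratio was 0.000768 and 0.000129 before and 0.00244 and 0.000975 after véraison, and in heated ones 0.0182 and 0.0136 before and 0.00277 and 0.00351 after it. These ratios compare values per length within a library. They were chosen after the values had been seen and were not tested.

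**Figure D3:**
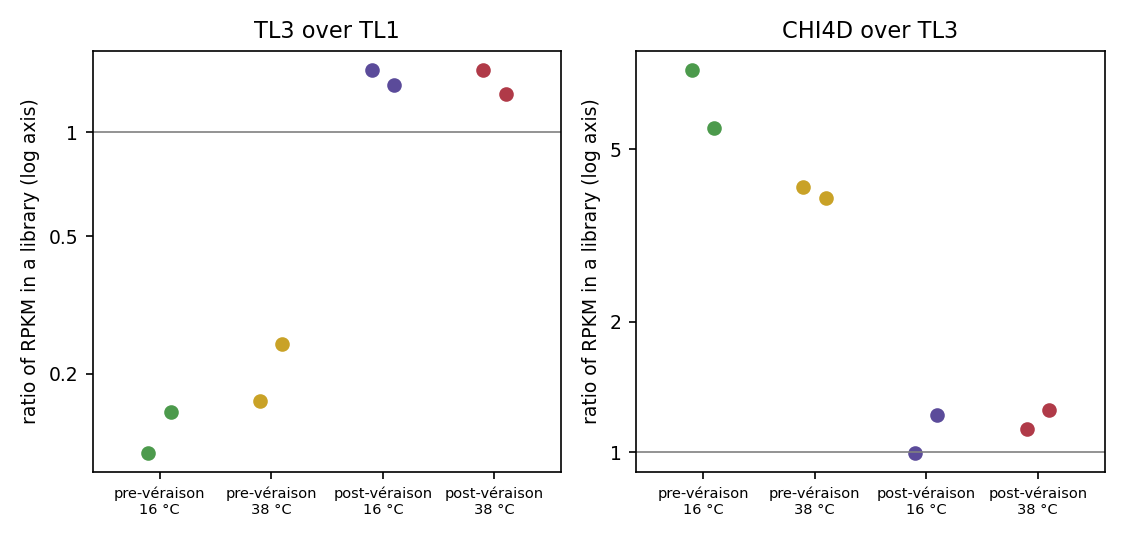
RPKM of TL3 over TL1 and of CHI4D over TL3 in each library (log axis; the line marks a ratio of 1). TL3 over TL1 lies below 1 in the 4 pre-véraison libraries (0.118 to 0.244) and above 1 in the 4 post-véraison ones (1.29 to 1.51), while CHI4D over TL3 comes down to 0.996 to 1.25.

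Heat before véraison set CHI4C apart from the other 4 genes. CHI4C rose from 0.79 and 0.13 RPKM at 16 °C to 12.2 and 10.45 RPKM after 1 hour at 38 °C, on 5 and 1 against 100 and 97 recovered reads. The difference was 3.11 ± 0.31 log2 units (SE; limma adjusted p = 5.8e-05). The ratio of means was 24.6, with 11.7 to 71.3 as the counting interval of the ratio of summed reads, 25.8. It was 1 of 5 genes called, against 20.4% of all tested genes (7.96% higher and 12.4% lower).

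CHI4D and TL1 had lower values in the heated pre-véraison berries, without passing the threshold. CHI4D was at 1023 and 1049 RPKM unheated and at 670.2 and 767 RPKM heated, and TL1 at 1137 and 1212 RPKM unheated and at 981 and 813 RPKM heated. Neither pair of groups overlapped, but how often that held over all genes was not counted. The differences were -0.53 ± 0.18 for CHI4D (SE; 95% interval -0.93 to -0.13; limma adjusted p = 0.067) and -0.39 ± 0.17 log2 units for TL1 (-0.78 to -0.01; limma adjusted p = 0.15). On the recovered reads limma voom called both lower, with adjusted p-values of 6.7e-04 and 0.0061, and so did limma with a robust prior (0.0093 and 0.038).

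TL3 and chit1a overlapped between heated and unheated pre-véraison berries. TL3 was at 134 and 188 against 164 and 199 RPKM, a difference of 0.18 ± 0.18 log2 units (SE; 95% interval -0.22 to 0.59; limma adjusted p = 0.54). For chit1a the values were 0.44 and 0.13 against 0.46 and 0.20 RPKM, on at most 4 reads in a library. The ratio of the summed reads had a counting interval of 0.28 to 5.69, so a fall or a moderate rise was not detectable at this depth.

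After véraison none of the 5 genes passed the threshold with heat in limma, against 1.25% of all genes tested (1.09% higher and 0.161% lower). Before adjustment, 1 of the 5 had a limma p under 0.05, CHI4C. Of all 16777 genes tested, 1040 higher and 584 lower ones did so too. CHI4C was at 32.0 and 15.3 RPKM unheated and at 41.5 and 52.3 RPKM heated. These groups do not overlap, but how often that held over all genes was not counted. The difference was 1.04 ± 0.31 log2 units (SE, 95% interval 0.35 to 1.72, limma adjusted p = 0.22). limma voom called CHI4C higher (adjusted p = 0.0081), and so did limma when unheated post-véraison replicate 1 was left out, at 1.55 (adjusted p = 0.027). With unheated post-véraison replicate 2 left out instead, the difference was 0.53 (adjusted p = 0.55), and over the 8 such fits the adjusted p reached 0.74.

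The 3 abundant genes were not called with heat after véraison. TL1 was at 8698 and 9441 RPKM unheated and 8726 and 9225 RPKM heated, with a 95% interval of the difference from -0.40 to 0.37 log2 units. TL3 was at 13170.4 and 12896 against 13205 and 11907 RPKM (-0.46 to 0.35), and CHI4D at 13115 and 15692 against 14959 and 14922 RPKM (-0.35 to 0.46). For these 3 genes the heated and unheated libraries overlapped. The values of chit1a were 6.44 and 4.84 against 4.15 and 4.58 RPKM, with a difference of -0.30 ± 0.20 log2 units (SE, limma adjusted p = 0.73). They did not overlap, and the share of all genes without overlap was not counted.

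The heat responses of the stages were compared directly by the interaction, post-véraison minus pre-véraison. CHI4C had an interaction of -2.07 ± 0.43 log2 units (SE; limma adjusted p = 0.017), 1 of 5 genes called against 7.47% of all genes (3.95% higher and 3.53% lower). On the linear scale the order was the other way, since mean RPKM of CHI4C was higher by 10.85 with heat before véraison and by 23.3 after it. It was not called when 5 was added to RPKM before the logarithm (-0.67; limma adjusted p = 0.25) or when low genes were kept (0.065). Nor was it called when replicate 2 of the unheated pre-véraison group (0.052), either replicate of the heated pre-véraison group (0.087 and 0.073) or heated post-véraison replicate 1 (0.074) was left out. The interaction was 0.59 ± 0.26 for CHI4D (SE; limma adjusted p = 0.22; voom adjusted p = 0.0096), 0.38 ± 0.25 for TL1 (0.42), -0.24 ± 0.26 for TL3 (0.65) and -0.35 ± 0.29 for chit1a (0.53).

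TL3 and TL1 are direct neighbours in the reference annotation, as are CHI4D and CHI4C. The 5 listed genes on either side of each were examined after the values had been seen, in the fit over all genes. Of the 10 neighbours of TL3, 9 were tested and 7 of them, TL1 included, were higher and 1 lower after véraison at 16 °C (8 and 1 with median-ratio scaling). Over all genes tested 14.9% were higher and 57.0% lower (31.8% and 33.6% with median-ratio scaling). The lower neighbour, LOC100244525, was at 3.71 RPKM before and 0.076 RPKM after véraison. It passed the filter only through its pre-véraison libraries, so its call is a description. LOC100246096 went from 62.2 to 7309 RPKM (6.91 log2 units; limma adjusted p = 4.1e-09), LOC100265026 from 4.33 to 725 (7.09; 4.3e-11) and LOC100263272 from 8.18 to 693 RPKM (6.19; 1.4e-08). These placeholders carry no descriptive name in the table used.

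In the same neighbourhood LOC100259841 and LOC100244461 were also called higher with heat before véraison, at 1.51 (limma adjusted p = 0.0062) and 1.46 log2 units (adjusted p = 0.014). Neither was called without replicate 1 of the heated libraries (adjusted p = 0.077 and 0.13), nor LOC100244461 without replicate 2 of the unheated ones (0.087). Around CHI4C, 4 of 9 tested neighbours were higher and 4 lower after véraison, and around CHI4D 3 of 8 were higher and 4 lower (3 lower in each with median-ratio scaling). The shares of all genes tested were 14.9% higher and 57.0% lower (31.8% and 33.6% with median-ratio scaling). LOC100244031, counted as higher around both, was at 0 RPKM before véraison and passed the filter only through its post-véraison libraries. LOC100252686, counted as higher around CHI4C, also needed its post-véraison libraries to pass, so these calls are descriptions. LOC100252703, on the other side of CHI4D from CHI4C, went from 55.4 to 691 RPKM with ripening (3.59; limma adjusted p = 3.0e-08) and was lower with heat before véraison, at -0.60 log2 units (adjusted p = 0.024). That last call was lost with median-ratio scaling (adjusted p = 0.056) and without any 1 of the 4 pre-véraison libraries (0.062 to 0.16).

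Of the 10 neighbours of chit1a 3 were tested, 1 higher and 1 lower after véraison (2 and 1 with median-ratio scaling). Of all genes tested 14.9% were higher and 57.0% lower (31.8% and 33.6% with median-ratio scaling). All 3 were called with heat before véraison, against 20.4% of all genes tested (7.96% higher and 12.4% lower). They were LOC100258952 at 1.74 log2 units (limma adjusted p = 3.8e-05), LOC100241839 at 0.95 (adjusted p = 0.024) and LOC100255425 at -0.85 (adjusted p = 0.0014). The call of LOC100241839 was lost in 5 of 18 alternatives. It was lost with no filter on low values (limma adjusted p = 0.060) and with only the libraries compared (0.054). The others left out unheated replicate 2 (0.61 log2 units) or heated replicate 1 or 2 (1.00 and 0.90).

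**Figure D4:**
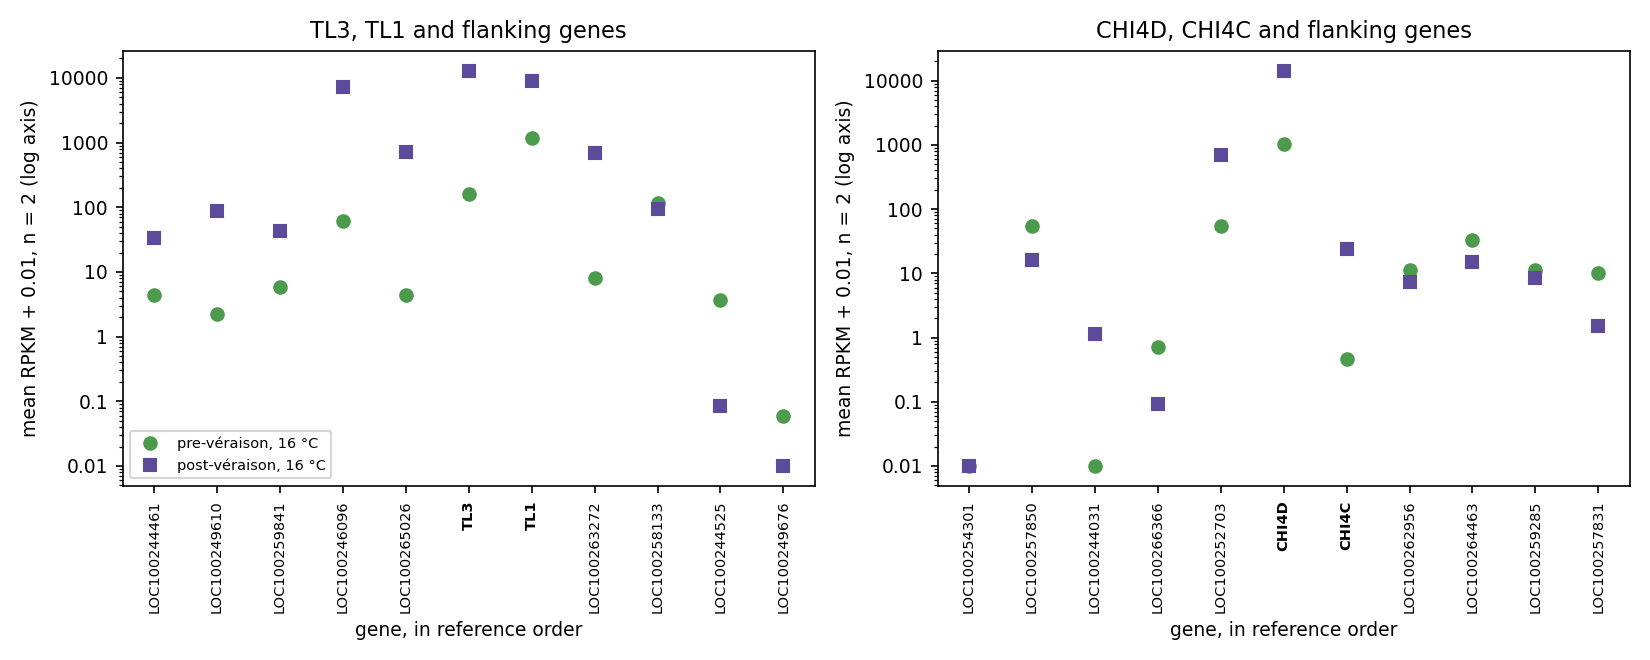
Mean RPKM (plus 0.01, log axis, n = 2) of the genes around TL3 and TL1 and around CHI4D and CHI4C in unheated berries, in reference order and not to distance. Around TL3 and TL1, LOC100246096, LOC100265026 and LOC100263272 also lie far higher after véraison, whereas the 4 genes shown beyond CHI4C lie below their pre-véraison levels. These 4 differences run from -0.36 (LOC100259285, not called) to -2.16 log2 units. The median over all genes tested was -0.52, and -0.0080 with median-ratio scaling.

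The levels of a pair of these neighbours were set against that of a member near them. LOC100252703 is directly beside CHI4D, whereas LOC100265026 lies between LOC100246096 and TL3. LOC100252703 was at 4.99 to 5.48% of the RPKM of CHI4D in the pre-véraison libraries and at 4.29 to 5.22% in the post-véraison libraries, ranges that overlap. LOC100246096 was at 33.9 to 46.5% of TL3 before and 55.0 to 59.0% after véraison, ranges that do not. Whether reads of near-identical copies were split between these genes was not tested, since how multiply matching reads were treated is not stated; the levels of TL3 and CHI4D are uncertain to that extent.

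Other PR genes did not share 1 pattern. Symbols for further PR families and for polygalacturonase-inhibiting protein matched 12 genes in the reference, of which 12 were listed and 10 tested. At 16 °C 5 were higher and 3 lower after véraison, with a median of 0.47 log2 units against -0.52 over all genes tested, and at 38 °C again 5 were higher and 3 lower, with a median of 0.64 against -0.45. The shares of all genes tested were 14.9% higher and 57.0% lower at 16 °C, and 17.2% and 53.0% at 38 °C. With heat before véraison 1 of the 10 PR genes was higher and 1 lower (7.96% and 12.4% of all genes tested). With heat after véraison and in the interaction the counts were 0, against 1.25% and 7.47% of all genes tested.

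Among the PR-10 genes, a family of small intracellular proteins, 3 of 7 tested were higher and 2 lower after véraison at 16 °C (4 and 2 with median-ratio scaling). The shares of all genes tested were 14.9% and 57.0% (31.8% and 33.6% with median-ratio scaling). PR10.3 went from 29.8 to 550.0 RPKM (4.39 log2 units), PR10.2 from 293 to 2032 RPKM (2.82), and PR10.4 from 0.81 to 5.26 RPKM (1.63). The post-véraison replicates of PR10.4 were far apart, at 8.13 and 2.40 RPKM, and with a library left out its difference lay between 0.92 and 2.35 and that of PR10.3 between 3.55 and 5.23, all called. PR10.7 went the other way, from 136 to 10.1 RPKM (-3.69), as did PR10.5, from 64.6 to 7.09 RPKM (-3.13), with limma adjusted p-values for these 5 genes from 1.3e-07 to 0.0023. PR10.9 was lower with heat before véraison, at -0.86 log2 units (limma adjusted p = 0.024), but was not called with median-ratio scaling (0.054), by voom (0.12), or without replicate 2 of the unheated (0.13) or replicate 1 of the heated berries (0.14).

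G1, a gene also listed as Glub, the name of a beta-1,3-glucanase that cuts cell-wall glucans, was at 1.44 RPKM before and 10.25 RPKM after véraison (2.21 ± 0.20 log2 units, SE; limma adjusted p = 3.4e-06). The PR-1 gene PR1, a defence marker, was low throughout, at 0.25 RPKM in unheated and 1.51 RPKM in heated pre-véraison berries (1.04 ± 0.24 log2 units, SE; limma adjusted p = 0.012). PR1 was not called when replicate 2 of either temperature was left out (adjusted p = 0.079 unheated and 0.090 heated). Its stage difference at 16 °C, 0.59 log2 units (limma adjusted p = 0.045), was called in 7 of 18 alternatives. A gene listed as PGIG and pgip, a polygalacturonase-inhibiting protein that blocks fungal pectinases, fell from 79.6 to 35.2 RPKM with ripening (-1.16; limma adjusted p = 6.3e-06). The patterns also matched GRIP22, BG1 and CYSP, whose symbols do not show a PR family. They were kept out of the counts, and all 3 were higher after véraison at both temperatures, against 14.9% and 17.2% of all genes tested. GRIP22 was below 1 RPKM in every pre-véraison library and passed the filter only through its post-véraison ones, so its call is a description.

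**Figure D5:**
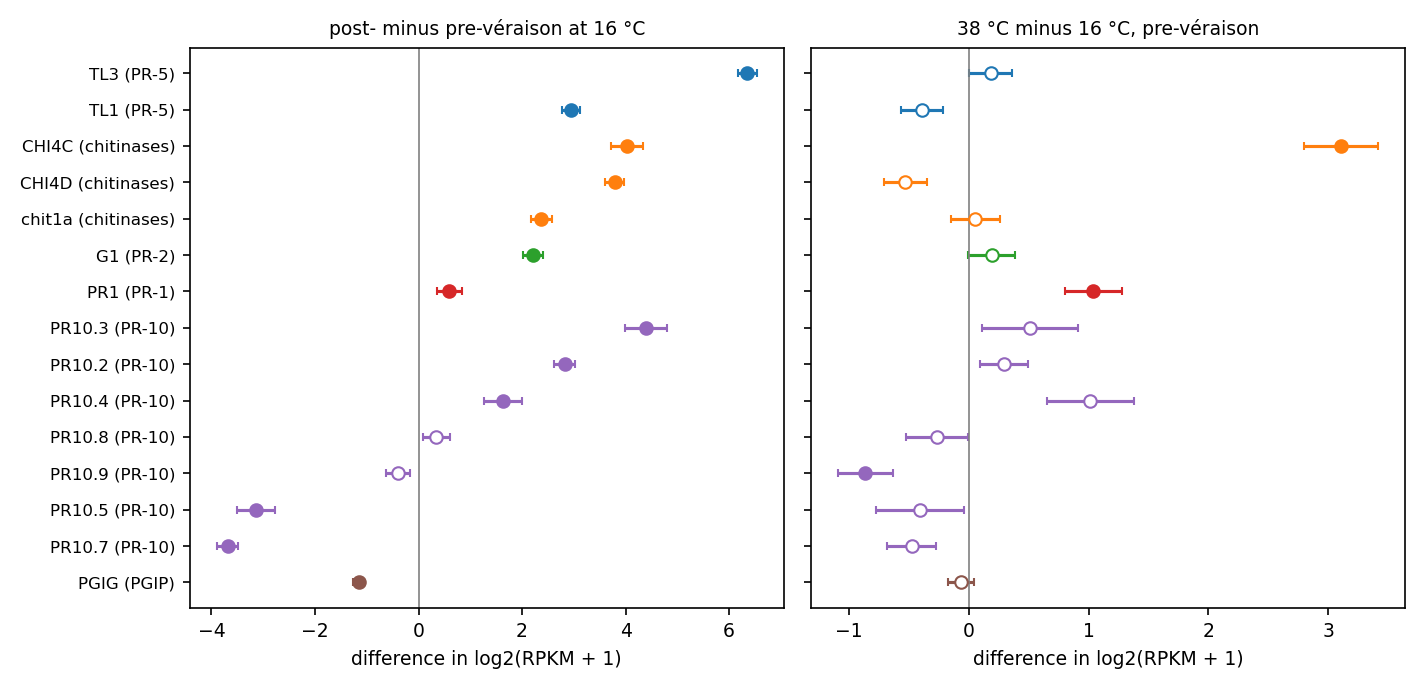
Differences in log2(RPKM + 1) of the tested PR genes after against before véraison at 16 °C (left) and with heat before véraison (right), with standard errors and scales of their own; filled points passed an adjusted p under 0.05. The 5 thaumatin-like and chitinase genes all lie above 0 on the left, the PR-10 genes reach from -3.69 to 4.39, and CHI4C lies farthest right on the right at 3.11. For chit1a the left point is a description and not a call, since it was tested only through its post-véraison values.

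The named genes whose profiles over the 8 libraries were most like each of the 5 were found among 255 named genes by Pearson correlation of log2(RPKM + 1). The libraries fall into 2 stages, so any gene that differs between the stages reaches a high value, and the correlations are given as a description. For TL1 they were SWEET15, a sugar transporter gene, at 0.998, the ripening-induced gene GRIP22 at 0.998 and CHI4D at 0.997. For TL3 they were UFGT, whose enzyme adds glucose to anthocyanidins, at 0.998, the chalcone isomerase gene CHI at 0.996 and the ripening gene MRIP1 at 0.996. CHI4D was closest to TL1, SWEET15 and GRIP22, each at 0.997. The closest to chit1a were MLO9 at 0.993 and the phenylalanine ammonia-lyase genes PAL at 0.992 and GVVPAL2 at 0.990. CHI4C had lower values, with METK3, an S-adenosylmethionine synthase gene, at 0.968, MLO3 at 0.949 and PR10.4 at 0.948. METK3 was at 4.02, 11.3 and 30.6 RPKM in unheated pre-véraison, heated pre-véraison and unheated post-véraison berries.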

How the data were processed

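Messenger RNA of deseeded berries was sequenced single-end on the Illumina platform in 8 libraries, per the labels' protocols. Bowtie 0.12.7 and TopHat 1.2.0 are named in the submitters' processing notes; neither the genome build, the annotation, the counter, the strand setting nor the treatment of multiply matching reads is given in the sources used here. The authors deposited RPKM per gene, 1 file per library and no pooling. Gene IDs were matched to RefSeq names of the assembly ASM3070453v1 (18647 of 25771), used for names and neighbour order only; no sequence is shown.

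The 16777 genes that reached 1 RPKM in 2 or more libraries were fitted as log2(RPKM + 1) with limma 3.58.1 in R 4.3.3, with a mean for each of the 4 groups, an intensity trend and two-sided tests, with 4 residual degrees of freedom and a prior of 6.06. The Benjamini-Hochberg adjustment ran over all genes of each of the 5 comparisons, and an adjusted p under 0.05 was a call. Fold changes on this scale understate those of low genes. The fit was tested on simulated data.

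Read numbers were recovered from the RPKM steps: all 20845 genes with a value in 3 or more libraries (100%) came out whole within 0.001 reads, up to a divisor common to a gene, and limma voom was run on them as an alternative (its calls are in the closing section). The 1708 genes above 0 in fewer libraries were not recovered, and 3218 were at 0 in all. Replicates were not copies of each other, with a mean chi-square per gene of 3.81 to 12.5 on their reads, where 1 is sampling noise. Counting intervals are at 95% (exact) and cover counting error only. No shared deviation of same-numbered replicates was seen (correlations of deviations -0.052 to 0.025), which cannot show whether they shared plants or a batch.

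The 5 genes, the gene lists and the markers were chosen with earlier results of these data known, so counts over them are descriptions. Named genes were the 5 members, up to 3 tested genes of each PR list per comparison with the smallest adjusted p, further list genes shown for completeness, and the 3 named genes most like each member; neighbours and ratios were added after the values had been seen. Alternatives were pseudocounts of 0.1 and 5, other filters, scalings and limma settings, the replicate block and leaving out each library. Tables and figures used Python 3.11.15, numpy 2.4.6, pandas 2.3.3, scipy 1.17.1 and matplotlib 3.10.9.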

Additional observations from a re-analysis of the deposited data

Results flagged for a closer look

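The heat response of CHI4C differed between the stages in a test of the difference itself, with an interaction of -2.07 log2 units (limma adjusted p = 0.017). Its mean RPKM was 0.46 ± 0.46 unheated and 11.3 ± 1.21 heated before véraison, and 23.7 ± 11.8 and 46.9 ± 7.64 after it (SD, n = 2). Over 18 alternatives the interaction lay between -3.68 and -0.67, with adjusted p-values from 0.0020 to 0.25. The unheated pre-véraison level rests on 6 reads, and the part of this low count in the interaction was not tested.

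BG1, a gene matched by a symbol pattern only, had an interaction of -1.02 log2 units (limma adjusted p = 0.035), which was lost in 8 of 18 alternatives (adjusted p-values from 0.021 to 0.13).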

How the results depend on the processing

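The 8 stage differences of TL1, TL3, CHI4D and CHI4C were called higher in all 152 values, each difference read from 19 alternative fits. Over 56 single-gene results and their 1048 values, 981 kept direction and side of the threshold, 50 lost and 8 gained the call and 9 turned sign. The 9 were uncalled differences. These values share fits and are not independent. Leaving out a library of a group not compared leaves the difference itself unchanged. With a library left out, the heat difference before véraison lay between -0.059 and 0.42 for TL3 and between -0.12 and 0.23 for chit1a. After véraison it lay between -0.074 and 0.045 for TL1, between -0.13 and 0.019 for TL3 and between -0.071 and 0.19 for CHI4D, which was at -0.013 under quantile normalization. The TL3 interaction lay between -0.48 and 0.0035.

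Counts of the 5 genes called that moved were as follows, and the cause was not tested. Called lower with heat before véraison were 0 genes, but 1 without the trend (CHI4D), 2 with a robust prior and 2 by voom (CHI4D and TL1). Called higher with heat after véraison were 0, but 1 by voom and 0 to 1 with a library left out (CHI4C). In the interaction 1 was called lower, but 0 with a pseudocount of 5, 0 with no filter and 0 to 1 with a library left out, and 1 was called higher by voom (CHI4D).

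Over all genes, calls with heat before véraison were 3417 and 2013 to 3362 with a library left out (2013 without replicate 2 of the heated berries). With heat after véraison they were 210, 36 with only the libraries compared and 104 to 209 with a library left out (104 and 107 without replicate 1 or 2 of the heated berries). In the interaction they were 1254 and 696 to 1061 (711 when heated pre-véraison replicate 2 was left out, 696 and 748 when heated post-véraison replicate 1 or 2 was).

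With the replicate number as a block, 3157, 185 and 1057 genes were called with heat before véraison, with heat after it and in the interaction, and no call of the 5 genes changed. The stage-16 °C call of PR1 was lost in 11 of 18 alternatives, its heat call in 2 and that of PR10.9 in 4.

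CHI4C and chit1a in unheated pre-véraison berries rest on 6 and 4 reads, so depth limits the size of their changes. With 2 libraries a group, moderate differences can be missed.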
